A study of Mus musculus with 4 samples.

Results

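Stem cell surface receptors are treated here as 9 genes, Procr, Slamf1, Tek, Esam, Robo4, Ly6a, Kit, Cd34 and Cd48, and were taken as every non-control array probe whose RefSeq transcript belongs to one of those symbols. All 9 genes were found, with 11 distinct probes on 12 spots, among 20886 genes that carry a symbol on the array and 13033 that were compared. Each of the 11 probes was well above background on all 4 arrays by the scanner software's call, so none was lost to the filter on dim probes. The label fits loosely. Kit and Tek are receptor tyrosine kinases and Procr, Slamf1 and Robo4 are receptors, whereas Ly6a and Cd48 are lipid-anchored surface proteins, Esam is an adhesion molecule and Cd34 is a sialomucin.

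Gene expression was measured in sorted LSK cells, the marrow fraction that lacks lineage markers and carries c-Kit and Sca-1, of C57BL/6 mice. Transplanted Sf3b1+/- cells and transplanted wild-type cells were CD45.2+ donor LSK cells taken 9 months after whole marrow of that genotype was given to lethally irradiated CD45.1+ hosts. Native Sf3b1+/- cells and native wild-type cells came straight from mice 20 weeks old. Sf3b1+/- mice carry 1 functional copy of Sf3b1, a core component of the U2 spliceosomal particle, in all tissues, so native mutant cells lay in a mutant marrow whereas transplanted ones lay in a wild-type host. The labels do not give the deleted part of the allele, the age of the marrow donors, or whether the 4 native mice and 5 recipients named in the design text were pooled. Each group was measured on 1 array, so no difference between groups has a replicate check.

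No single protein defines the blood stem cell of the mouse, and stem cells are recognised by combinations. c-Kit and Sca-1, the product of Ly6a, set the outer gate. Inside it, CD150 (Slamf1), the protein C receptor EPCR (Procr), the angiopoietin receptor TIE2 (Tek), ESAM and ROBO4 are enriched on long-term repopulating cells. CD48 and CD34 mark multipotent progenitors that have left that state in the adult. Several of these genes, Tek, Esam, Robo4, Procr and Cd34 among them, are also active in endothelium.

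Signals are given in scanner units after each array was scaled to a common 75th percentile of its detected probes, and differences are on the log2 scale. A value after ± is the scanner software's own error estimate for the spots behind it, which is about 0.144 on the log2 scale for a bright spot and covers neither animals nor sorting. Spots of the same probe that were well above background scattered on each array with a median SD between 0.0673 and 0.0799. The share of spots well above background ran from 47.7% in native wild-type to 51.5% in transplanted Sf3b1+/- cells, and no spot was saturated. Before scaling, the 75th percentile of detected probes was 2686 units in transplanted Sf3b1+/- cells and 1823 in transplanted wild-type cells. It was 1940 units in native Sf3b1+/- cells and 1652 in native wild-type cells. The gating genes Kit and Ly6a were well above background in all groups. Of 13 genes on the array listed as lineage markers, 8 or 9 were well above background on each array. Ptprc, Cd3e, Cd4, Cd5, Itgam and Klrb1c were so on all of them. Ptprc is the gene of CD45, by which donor cells were chosen, so the sort does not remove it although these counts include it. Cd8a was not well above background on any array, while Cd79a, a chain of the B-cell receptor, was so on both native arrays and on neither transplanted one. Sf3b1 itself, read by 1 probe (NM_031179), had 253 units in transplanted Sf3b1+/- cells and 273 in transplanted wild-type cells, and 328 units in native Sf3b1+/- cells and 436 in native wild-type cells. The labels do not say whether that probe reads the deleted part.

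The first comparison asks whether Sf3b1+/- stem and progenitor cells that regenerated in a wild-type host differ in these surface genes from wild-type cells that did the same. Of the 9 genes, 5 were at least 1.5-fold higher in transplanted Sf3b1+/- cells (Slamf1, Tek, Procr, Esam and Ly6a), 4 were less than 1.5-fold apart, and none was at least 1.5-fold lower. Over all compared genes the same threshold was passed upwards by 7.8% and downwards by 6.43%. Slamf1 and Tek were past 2-fold as well, as were 2.05% of all compared genes. The median over the 9 genes was 0.60, against 0.01 over all compared genes. The split over all genes shifts with the scaling, to 9.21% higher and 4.75% lower after quantile normalization and 10% and 4.27% after cyclic loess. Spike-in scaling put 51.2% of all genes and 7 of the 9 past 1.5-fold upwards, and 0.752% of all genes downwards. In sorted cell populations such as these, fewer cells of a type and less RNA per cell cannot be told apart.

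**Figure D1:**
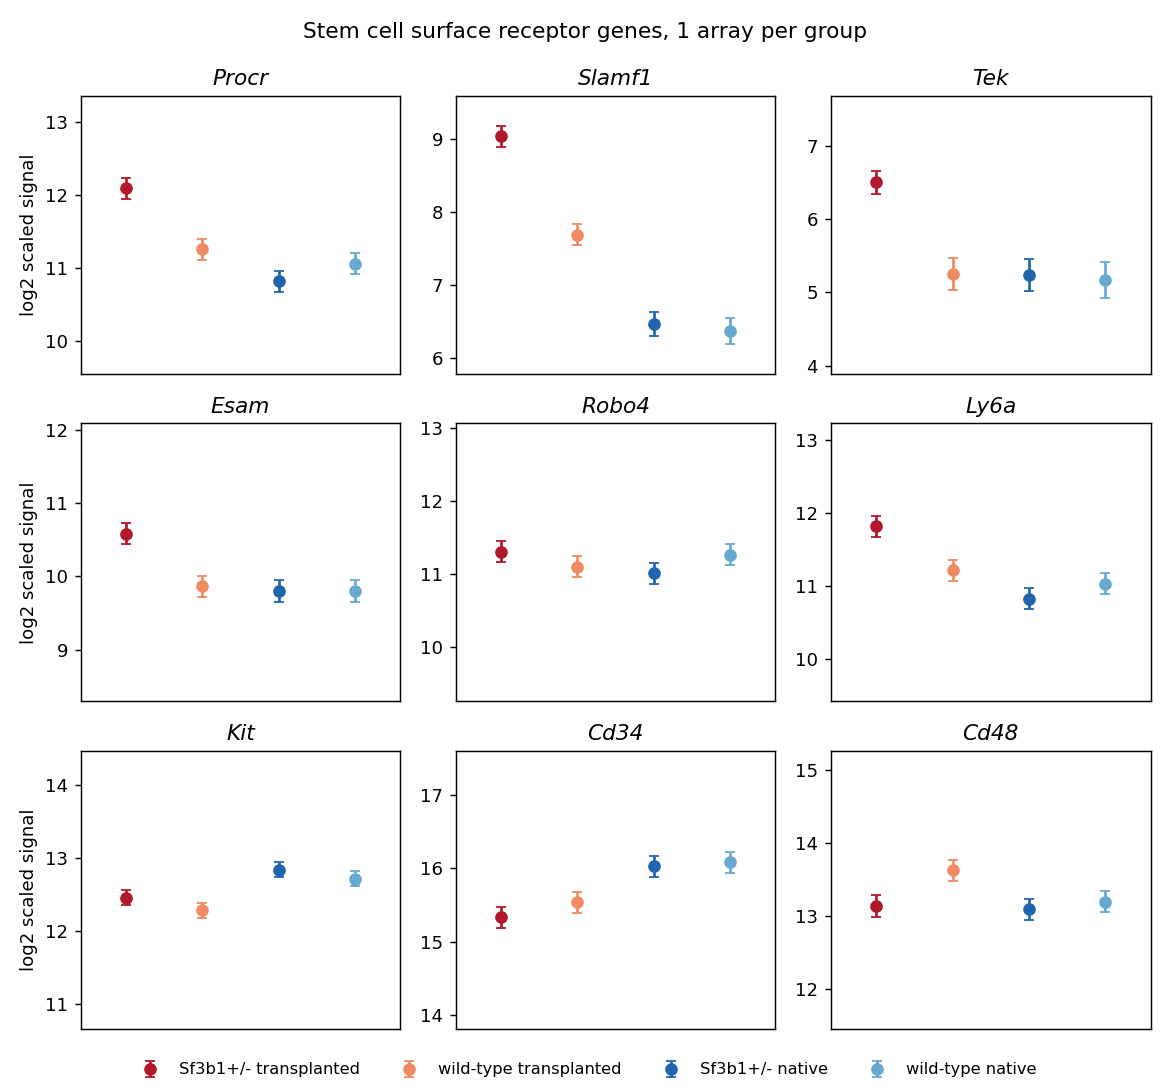
Log2 scaled signal of the 9 genes on each of the 4 arrays, 1 panel per gene with axes of equal span, and bars for the scanner software's error estimate. Slamf1, Tek, Procr, Esam and Ly6a are highest in transplanted Sf3b1+/- cells, while Cd34 and Kit are higher in both native groups than in both transplanted groups at this scaling, an order that spike-in scaling does not keep.

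Slamf1 encodes CD150, a self-binding receptor of the SLAM family that marks the stem cells at the top of the hierarchy. Its signal was 525 units in transplanted Sf3b1+/- cells and 207 in transplanted wild-type cells, and 88.6 in native Sf3b1+/- cells and 83.0 in native wild-type cells. Transplanted Sf3b1+/- cells were thus highest and transplanted wild-type cells next, and the native groups lay within the scanner error of each other. The difference between transplanted genotypes was 1.34 ± 0.21, or 2.54-fold. Among all compared genes 0.913% had a difference this high or higher.

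Tek encodes TIE2, the receptor through which angiopoietin-1 is known to act on stem cells in their niche. It was the dimmest probe of the set, with 90.9 units in transplanted Sf3b1+/- cells and 38.1 in transplanted wild-type cells, and 37.7 units in native Sf3b1+/- cells and 35.9 in native wild-type cells. Only transplanted Sf3b1+/- cells stood apart, and the other groups lay within the scanner error of each other. Transplanted genotypes differed by 1.26 ± 0.27, or 2.39-fold. Before scaling, the processed signals were 123 ± 13.1 and 34.9 ± 5.24 units, against local backgrounds of 42 and 43 units. Replicate spots this dim scattered with an SD of 0.234 over 26 probes. With normexp background correction, which pulls dim probes together, the difference was 0.65.

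Procr encodes EPCR, the receptor that holds activated protein C and helps retain stem cells in marrow. It had 4363 units in transplanted Sf3b1+/- cells and 2444 in transplanted wild-type cells, and 1802 units in native Sf3b1+/- cells and 2133 in native wild-type cells. Transplanted Sf3b1+/- cells were highest, and transplanted and native wild-type cells lay within the scanner error of each other. Transplanted genotypes differed by 0.84 ± 0.20, or 1.79-fold.

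Esam encodes an endothelial adhesion molecule that stem cells also display. It had 1537 units in transplanted Sf3b1+/- cells and 935 in transplanted wild-type cells, and 892 units in each of the native groups. The difference between transplanted genotypes was 0.72 ± 0.20, or 1.64-fold, and the other 3 groups lay within the scanner error of each other. Robo4, the endothelial member of the roundabout receptors and an adhesion receptor of stem cells, did not follow it. Robo4 had 2541 units in transplanted Sf3b1+/- cells and 2206 in transplanted wild-type cells, and 2072 units in native Sf3b1+/- cells and 2471 in native wild-type cells. Its difference between transplanted genotypes was 0.20 ± 0.20, about 1 scanner error, and none of its differences in the comparisons made here reached 2 scanner errors.

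The gating genes differed from each other. Ly6a, which encodes Sca-1, had 3624 units in transplanted Sf3b1+/- cells and 2386 in transplanted wild-type cells, and 1825 units in native Sf3b1+/- cells and 2096 in native wild-type cells. Between transplanted genotypes it differed by 0.60 ± 0.20, or 1.52-fold, just past the threshold of 1.5-fold, and it was 0.57 with normexp, just short of it. Kit, the receptor of stem cell factor, had 5619 units in transplanted Sf3b1+/- cells and 4993 in transplanted wild-type cells, and 7323 units in native Sf3b1+/- cells and 6717 in native wild-type cells. Its difference between transplanted genotypes was 0.17 ± 0.14, and 0.76 with spike-in scaling, which raised the median of all genes by 0.59. The Kit probe is printed on the array at 2 spots, and both put transplanted Sf3b1+/- cells above transplanted wild-type cells, at 5559 and 5678 units against 4852 and 5139 units. Since cells were sorted on the proteins of both genes, their transcript levels describe cells already chosen for that protein.

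The progenitor markers pointed the other way. Cd48, a lipid-anchored ligand of CD244, had 8999.8 units in transplanted Sf3b1+/- cells and 12622 in transplanted wild-type cells, and 8710.1 units in native Sf3b1+/- cells and 9388 in native wild-type cells. With this main probe, transplanted wild-type cells were highest, and the other 3 groups lay within the scanner error of each other. A second Cd48 probe had 4221 units in transplanted Sf3b1+/- cells and 4834 in transplanted wild-type cells. In native cells that probe had 3396 units in Sf3b1+/- and 3483 in wild-type cells. The difference between transplanted genotypes was -0.49 ± 0.20 with the main Cd48 probe and -0.20 with the second. Cd34, a sialomucin of progenitors, had 41196 units in transplanted Sf3b1+/- cells and 47564 in transplanted wild-type cells, and 66751 units in native Sf3b1+/- cells and 69337 in native wild-type cells. The difference between transplanted genotypes was -0.21 ± 0.20 with the main probe and -0.02 with a second Cd34 probe. The direction of both genes depends on the scaling, since with spike-in scaling the transplanted differences were 0.11 for Cd48 and 0.39 for Cd34, and with normexp that of Cd34 was 0.01.

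The scale of an array cancels when genes are set against each other on it, but the choice of probe and the background correction do not. The ratios here use the main probe of each gene. The second probes of Cd48 and Cd34 differed less between transplanted genotypes, at -0.20 and -0.02. Normexp lowered that difference of Slamf1 from 1.34 to 1.11. Slamf1 over Cd48, the ratio of the marker of stem cells to the marker of progenitors in the SLAM scheme, was 3.56-fold higher in transplanted Sf3b1+/- cells than in transplanted wild-type cells, a log2 change of 1.83 ± 0.29. In native cells the same change was 0.20 ± 0.32. Procr over Cd34 was 2.06-fold higher in transplanted Sf3b1+/- than in transplanted wild-type cells (1.04 ± 0.29), with a change of -0.19 ± 0.29 in native cells. Tek over Kit changed by 1.09 ± 0.30 in transplanted and -0.05 ± 0.36 in native cells. Slamf1 over Cd34 changed by 1.55 ± 0.29 in transplanted and 0.15 ± 0.32 in native cells. Ly6a over Kit, the smallest change of these ratios in transplanted cells, stood at 0.43 ± 0.25 in transplanted and -0.32 ± 0.25 in native cells, both under 2 scanner errors.

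Promoter sequence is shown for Slamf1 and Procr, which were higher in transplanted Sf3b1+/- cells, and for Cd34, which was not. It comes from RefSeq, build GRCm38.p6, and each stretch ends where the annotated gene begins, which shortens that of Procr. In all, 7 of the 9 genes matched an entry, and Ly6a and Esam did not. Capitals mark the letters AGGAAG or CTTCCT, a single spelling of an Ets site.
Slamf1, chr1:171766882-171767130, plus strand: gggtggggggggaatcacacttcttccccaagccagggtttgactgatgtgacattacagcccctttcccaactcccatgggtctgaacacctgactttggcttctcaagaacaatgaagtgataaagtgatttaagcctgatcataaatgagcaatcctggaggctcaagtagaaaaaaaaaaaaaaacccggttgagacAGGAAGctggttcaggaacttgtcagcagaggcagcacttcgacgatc
Procr, chr2:155750967-155751124, plus strand: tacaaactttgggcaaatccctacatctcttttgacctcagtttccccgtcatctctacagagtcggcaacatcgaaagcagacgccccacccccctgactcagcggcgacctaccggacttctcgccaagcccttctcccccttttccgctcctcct
Cd34, chr1:194938571-194938820, plus strand: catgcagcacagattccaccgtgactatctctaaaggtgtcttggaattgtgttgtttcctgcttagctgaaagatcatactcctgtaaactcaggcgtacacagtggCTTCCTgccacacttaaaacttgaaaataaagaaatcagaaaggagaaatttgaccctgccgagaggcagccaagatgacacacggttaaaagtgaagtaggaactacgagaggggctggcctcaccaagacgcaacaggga
Letters were searched on both strands in the 250 bases before the start of a promoter entry, with 1 entry taken for each of the 7 genes. For Procr, 158 of the 250 bases lie before the annotated gene. Motifs found in these genes did not overlap. The Ets letters AGGAAG or CTTCCT stood in Slamf1, Robo4, Kit and Cd34 and in 29.5% of all 32851 promoters. The Runx letters TGTGGT or ACCACA stood in Cd48 alone among the 7 genes and in 14% of all promoters. The GATA letters AGATAA or TTATCT and the E-box letters CAGATG or CATCTG were in none of the 7 windows, against 9.99% and 14.4% of all promoters. Only these spellings were searched, and others occur, such as TGATAA and CACCTG in the Slamf1 stretch. Genes with and without the Ets letters AGGAAG or CTTCCT thus lay on both sides of the 1.5-fold threshold, and a match describes letters only.

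The second comparison asks the same of native cells. None of the 9 genes was 1.5-fold apart between native Sf3b1+/- and native wild-type cells in either direction. Over all compared genes 3.25% passed that threshold upwards and 4.7% downwards, and 0.783% were past 2-fold upwards. The 9 differences ran from -0.25 for Robo4 to 0.12 for Kit, with a median of -0.05, and 7 of them were smaller than 1 scanner error. None exceeded 2 scanner errors, against 6 of the 9 in transplanted cells. No share of all compared genes at these errors is given here, so these counts describe the 9 genes only. Slamf1 stood at 0.09 ± 0.24, Tek at 0.07 ± 0.33, Esam at 0.00 ± 0.20, Procr at -0.24 ± 0.20 and Ly6a at -0.20 ± 0.20.

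**Figure D2:**
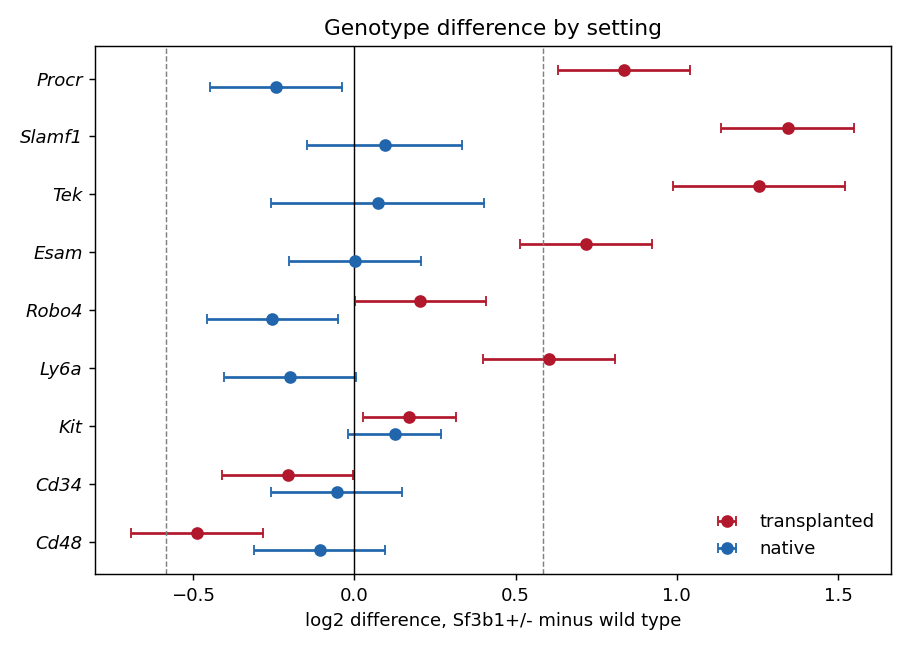
Log2 difference, Sf3b1+/- minus wild type, for each gene in transplanted and native cells, with bars for the scanner software's error estimate and dashed lines at 1.5-fold. In transplanted cells 5 genes lie beyond the right line, and in native cells none lies beyond either line.

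Set side by side, the signed gap, the transplanted less the native genotype difference, was above 0 for 7 of the 9 genes and for 50.5% of all compared genes. It was 1.25 for Slamf1, 1.18 for Tek, 1.08 for Procr, 0.80 for Ly6a and 0.72 for Esam. Of all compared genes, between 1.83% and 5.82% had a gap as high as those of these 5 genes or higher. For Robo4 it was 0.46 and for Kit 0.05, while Cd34 and Cd48 had gaps of -0.15 and -0.38. This gap has no test, since it is the only residual that 4 arrays leave.

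**Figure D3:**
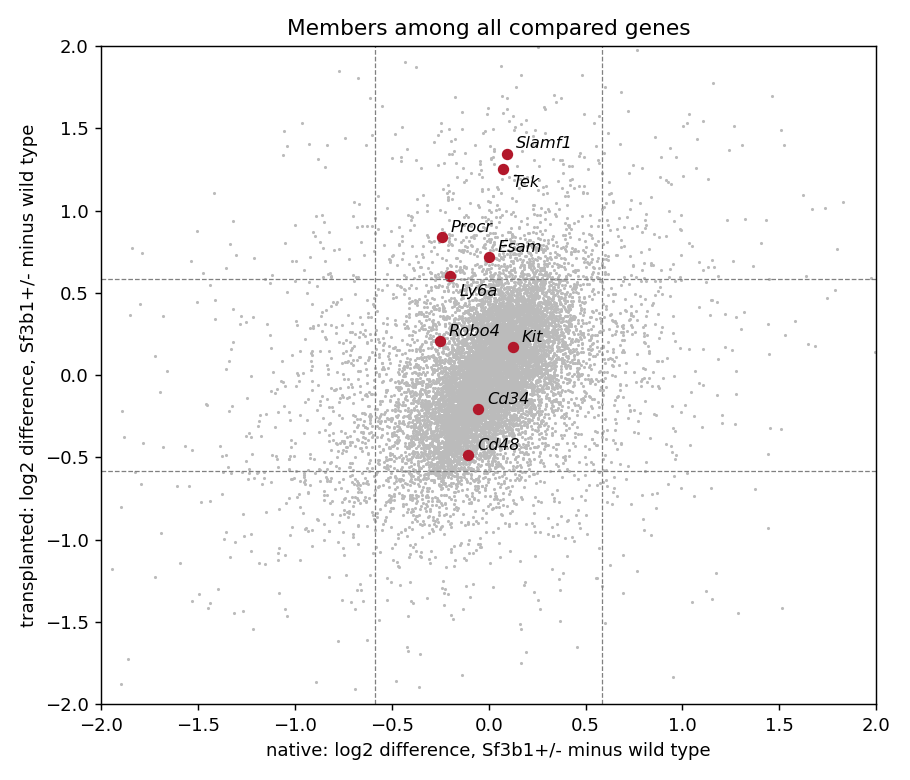
Genotype differences of 13033 genes (grey) in native cells on the horizontal axis and transplanted cells on the vertical axis, both log2, with the 9 genes in red and dashed lines at 1.5-fold. Slamf1, Tek, Procr, Esam and Ly6a lie above the upper line and near 0 on the horizontal axis, and 61 genes lie outside the axes.

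A limma fit over all 4 arrays, with genotype and setting as terms and 1 residual degree of freedom per gene, called none of the 9 genes for genotype at an adjusted p (Benjamini-Hochberg) under 0.05. It called 0% of all genes, and the smallest adjusted p of any gene was 0.308. At an unadjusted p under 0.05 it called 0 of the 9 genes and 13.6% of all genes. Slamf1 had the largest mean genotype difference of the 9, at 0.72 with a standard error of 0.33 and an adjusted p of 0.396. Tek followed at 0.66 with an adjusted p of 0.401. Cd48 stood at -0.30 with an adjusted p of 0.418. With spike-in scaling limma gave Slamf1 an adjusted p of 0.0124 and Tek one of 0.02, in a fit that called 4.05% of all genes.

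The third comparison asks how cells long after transplantation differ from native cells, with transplantation, the host and the age of the cells not separable. Slamf1 was higher in transplanted cells of both genotypes, by 5.92-fold in Sf3b1+/- cells and 2.49-fold in wild-type cells. In Sf3b1+/- cells 5 of the 9 genes were at least 1.5-fold higher after transplantation, the same 5 as between transplanted genotypes, and Cd34 was 1.62-fold lower. These comparisons share the transplanted Sf3b1+/- array. Over all genes 11.4% passed 1.5-fold upwards and 7.01% downwards. Slamf1, Procr and Tek were past 2-fold upwards, as were 4.8% of all genes. In wild-type cells Slamf1 alone of the 9 was past 1.5-fold, against 7.95% of all genes higher and 5.74% lower. It was also past 2-fold there, as were 2.79% of all genes. With normexp, which pulls dim probes together, Slamf1 had a log2 difference of 0.82 in wild-type cells, under 2-fold. In Sf3b1+/- cells normexp gave 1.91 for Slamf1, 1.15 for Procr and 0.61 for Tek, the last under 2-fold.

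Apart from Slamf1, the differences after transplantation were 1.28 in Sf3b1+/- and 0.20 in wild-type cells for Procr, 1.27 and 0.08 for Tek, 0.99 and 0.19 for Ly6a, and 0.78 and 0.07 for Esam. Kit was lower in transplanted cells by a similar amount in both genotypes, at -0.38 ± 0.14 in Sf3b1+/- and -0.43 ± 0.14 in wild-type cells. Cd34 was lower as well, at -0.70 ± 0.20 in Sf3b1+/- and -0.54 ± 0.20 in wild-type cells, and the second Cd34 probe gave -0.29 and -0.34. With spike-in scaling, which raised the median of all genes by 0.79 in Sf3b1+/- and 0.42 in wild-type cells, Kit stood at 0.41 in Sf3b1+/- and -0.0054 in wild-type cells, and Cd34 at 0.097 and -0.12. Cd48 was 0.05 ± 0.20 in Sf3b1+/- cells and 0.43 ± 0.20 in wild-type cells, and the second Cd48 probe gave 0.31 and 0.47. In the limma fit none of the 9 genes passed an adjusted p of 0.05 for the setting, which 0.583% of all genes did. At an unadjusted p under 0.05 the fit called 3 of the 9 (Slamf1, Kit and Cd34) and 25.8% of all genes. Slamf1 had a mean setting difference of 1.94 with a standard error of 0.33 and an adjusted p of 0.103, and Cd34 one of -0.62 with an adjusted p of 0.12. With normexp both passed, at adjusted p of 0.032 for Slamf1 and 0.0222 for Cd34, where 8.51% of all genes did.

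The 9 genes did not share 1 profile over the 4 arrays. Procr, Ly6a and Esam were nearest to each other, with a root mean square distance between centred log2 profiles of 0.11 for Procr and Ly6a and 0.12 for Ly6a and Esam. Kit and Cd34 formed a near pair at 0.18, and Slamf1 and Cd34 were furthest apart at 1.39. For genes whose values spanned at least 1 on the log2 scale, the closest other genes were sought over the 4 arrays. They were Prkar2a (0.017) and Aifm2 (0.035) for Procr, Dnaja4 (0.053) and Evc (0.086) for Slamf1, and Gm11559 (0.059) and Raly (0.063) for Tek. With 4 points per profile such likeness is common for small changes. Within a distance of 0.15 lay 2226 genes for Kit, 80 for Procr and 2 for Slamf1.

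Ligands and partners of these receptors were read less often. Of 18 such genes on the array 8 were not well above background on any array, among them Kitl, the ligand of Kit, Proc, the ligand of Procr, and Slit2, Slit3, Robo1 and Robo2 of the roundabout pathway. In transplanted cells 2 of the 9 that could be compared passed 1.5-fold upwards in Sf3b1+/-, namely Tie1, the partner receptor of TIE2, at 1.29, and F2rl3, a thrombin receptor, at 0.77. Tie1 had 828 units in transplanted Sf3b1+/- cells and 340 in transplanted wild-type cells, and 457 units in native Sf3b1+/- cells and 449 in native wild-type cells. Its signal thus stood apart in transplanted Sf3b1+/- cells, as that of Tek did. Angpt1, the TIE2 ligand, differed by 0.00 between transplanted genotypes and by 0.01 between native ones. Cd2 (-0.98), Slit1 (-0.56) and Sh2d1b1 (-0.52) were the lowest in transplanted cells. In native cells 3 of the 9 were at least 1.5-fold lower in Sf3b1+/-, of which Slit1 (-0.72) alone was well above background on all 4 arrays. Over all compared genes, 7.8% passed 1.5-fold upwards in transplanted cells, and 4.7% passed it downwards in native cells.

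Among 18 compared paralogs 3 passed 1.5-fold upwards and 4 downwards in transplanted Sf3b1+/- against transplanted wild-type cells, with a median of -0.02. The shares over all compared genes were 7.8% and 6.43%. All 3 paralogs that were higher belong to the junctional adhesion family related to Esam: Jam2 at 1.13, Jam3 at 1.04 and F11r at 0.71. Those lower were Slamf7 (-1.30), Ly6d (-0.95), Ly6k (-0.64) and Slamf6 (-0.62). In native cells none was 1.5-fold higher, and Slamf7 (-1.40), Ly6i, Slamf6 (-0.95) and Jam3 (-0.67) were lower. Over all compared genes 3.25% were higher and 4.7% lower at that threshold. The lymphocyte receptors Slamf6 and Slamf7 were thus lower in Sf3b1+/- cells of both settings, unlike Slamf1. After transplantation Jam2 was higher by 3.66 in Sf3b1+/- and 2.29 in wild-type cells. Slamf8 alone of the paralogs passed limma for the setting, at a mean difference of 1.53 and an adjusted p of 0.0486.

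A list of other surface proteins that stem cells carry was read in full. Of 30 compared, 9 passed 1.5-fold upwards and 1 (Lepr, -0.86) downwards in transplanted Sf3b1+/- cells, with a median of 0.28. Over all compared genes 7.8% passed upwards and 6.43% downwards. Among the highest of the list were Itga2b, the integrin CD41, at 1.27 and Jam3 at 1.04. In native cells 2 of the 30 were higher, Ncam1 (0.83) and Itgb3 (0.59), and 3 lower, Fgfr1 (-0.73), Selp (-0.70) and Jam3, with a median of -0.08. Of all compared genes 3.25% were 1.5-fold higher and 4.7% lower there. Itgb3 was the 1 gene of the list at least 1.5-fold higher in both settings.

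A further list held receptors of progenitors. Of 16 compared none was 1.5-fold higher and 3 were at least 1.5-fold lower in transplanted Sf3b1+/- cells: Il7r, the interleukin-7 receptor, at -1.33, Cd33 at -0.96 and Ccr9 at -0.82. The median of the 16 was -0.27, with Il3ra highest at 0.33. Over all compared genes 7.8% passed 1.5-fold upwards and 6.43% downwards. In native cells none of the 16 was 1.5-fold apart, with a median of -0.13. Of all compared genes 3.25% were 1.5-fold higher and 4.7% lower there. Flt3, the receptor of multipotent progenitors with lymphoid potential and a relative of Kit, had 4350 units in transplanted Sf3b1+/- cells and 5999.6 in transplanted wild-type cells, and 9979 units in native Sf3b1+/- cells and 9130 in native wild-type cells. No gene of these 4 lists passed limma for genotype at an adjusted p of 0.05.

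**Figure D4:**
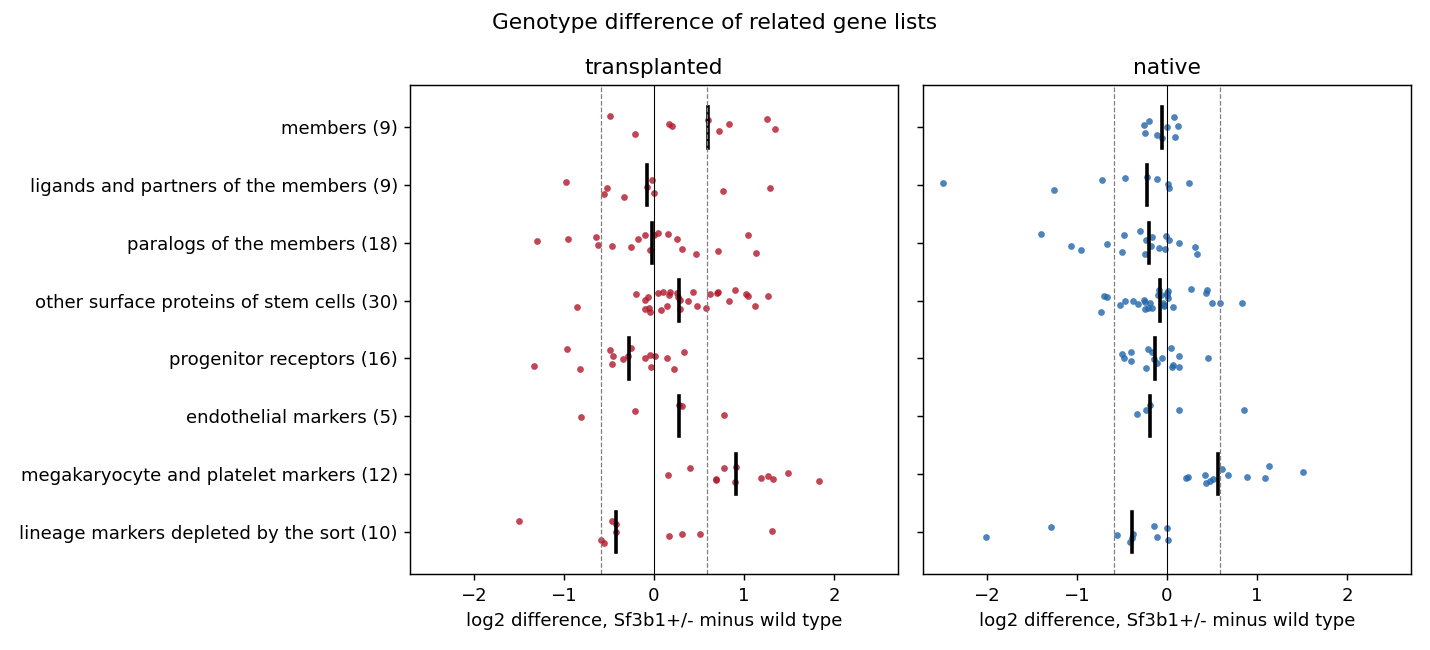
Log2 difference, Sf3b1+/- minus wild type, of each compared gene in 8 lists, with transplanted cells on the left, native cells on the right, list medians as black bars and dashed lines at 1.5-fold. The number of compared genes is in brackets, and vertical scatter within a list carries no value.

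Markers of other cells that the sample could hold, some of which share these surface genes, were read beside them. Of 16 endothelial markers 5 were compared, and Cdh5, Flt4, Ptprb, Mmrn2, Lyve1, Stab2, Sox17 and Sema3g were not well above background on any array. Their summed signal was 4790.4 units in transplanted Sf3b1+/- cells and 7473 in transplanted wild-type cells, and 4524 units in native Sf3b1+/- cells and 5565 in native wild-type cells. Between transplanted genotypes the summed endothelial signal was thus lower in Sf3b1+/- cells while Tek, Esam and Procr were higher. Sum and median differ in sign there, since the median of the 5 was 0.28 and most of the sum was Kdr, at -0.81. Rasip1 was higher in transplanted Sf3b1+/- cells, at 256 units against 150 in transplanted wild-type cells (0.78). Sox18, well above background on 1 array, read 50.3 units in transplanted Sf3b1+/- cells and 4.53 in transplanted wild-type cells, and 4.59 units in native Sf3b1+/- cells and 5.39 in native wild-type cells. Cldn5 was 5.45-fold higher after transplantation in Sf3b1+/- cells and 7.96-fold in wild-type cells, with an adjusted p of 0.0383 for setting in limma. Megakaryocyte and platelet markers were higher in Sf3b1+/- cells of both settings, with 10 of 12 at least 1.5-fold higher in transplanted and 6 of 12 in native cells. Over all compared genes those shares were 7.8% and 3.25%. Their summed signal was 63688 units in transplanted Sf3b1+/- cells and 33646 in transplanted wild-type cells, and 43400.0 units in native Sf3b1+/- cells and 27880.3 in native wild-type cells. Most of each sum was Pf4. Listed lineage markers, Ptprc among them, summed to 13057 units in transplanted Sf3b1+/- cells and 16681 in transplanted wild-type cells. They summed to 16514 in native Sf3b1+/- cells and 17069 in native wild-type cells, and most of each sum was Itgam. The natural killer cell gene Klrb1c was highest in transplanted Sf3b1+/- cells, as Slamf1 was, at 493 units against 199 in transplanted wild-type cells. It had 44.9 units in native Sf3b1+/- cells and 58.2 in native wild-type cells. Ncr1, another natural killer cell gene of the list, went the other way between transplanted genotypes. It had 22.5 units in transplanted Sf3b1+/- cells and 33.0 in transplanted wild-type cells (-0.55), and was not well above background on either native array. The part of these cell types in the differences of the 9 genes was not tested.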

How the data were processed

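LSK RNA was hybridised to 4 single-colour Agilent arrays, 1 per group, after Cy3 labelling with spike-in transcripts, per the labels. The deposited scanner files give spot intensity from Feature Extraction 10.7.1.1 (protocol GE1_107_Sep09, design 028005, build mm9, per the file headers), background-subtracted and detrended within the array but not scaled between arrays. Values in the deposited series matrix are a ratio, the processed signal over a constant for each array, as their comparison with the scanner signals showed.

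Probes were named through RefSeq transcripts of GRCm38.p6, used for names, gene order and promoters. Log2 signals were averaged over spots, leaving out outlier spots, and scaled to the 75th percentile of the 24731 probes well above background on all arrays. The brightest probe stood for a gene, and genes well above background on at least 2 arrays were compared. Differences within a pair of arrays carry no test. Genotype and setting were fitted in limma 3.58.1 (R 4.3.3), two-sided, with a prior of 3.05 degrees of freedom, so its p-values reflect only how these arrays scatter, in part perhaps technically. The fit was tested on simulated data. All arrays shared 1 slide, so position cannot be told apart from group.

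Members, lists and motifs were chosen with earlier results of these data known. Named genes are the 9 members and, drawn from each list, the 3 highest and 3 lowest, genes past 1.5-fold the same way in both settings, and the 2 nearest profiles. Flt3, Angpt1, Slamf8, Sox18 and genes named as not detected were named outside that rule, after their values were seen. Some list genes are not reported here. Alternatives were other scalings, normexp with an offset of 50, filters, probe averaging and the deposited series matrix. The planned normexp column, the mean spot signal, was replaced by the median. The number of arrays limits precision.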

Additional observations from a re-analysis of the deposited data

Results flagged for a closer look

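Genotype differences of opposite sign in the settings were found for 3 of the 9 genes. Procr stood at 0.84 in transplanted and -0.24 in native cells, Ly6a at 0.60 and -0.20, and Robo4 at 0.20 and -0.25, all as Sf3b1+/- minus wild type. Robo4 also differed in sign after transplantation, at 0.29 in Sf3b1+/- cells and -0.16 in wild-type cells. With 1 array per group these differences between settings or genotypes were not tested. The native differences of the 3 genes, and every difference of Robo4 given here, were under 2 scanner errors. No share of all compared genes with opposite signs is given here, so the count describes the 9 genes only.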

How the results depend on the processing

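Under 9 alternatives, Slamf1, Tek, Procr and Esam stayed at least 1.5-fold higher in transplanted Sf3b1+/- than in transplanted wild-type cells, with ranges of 1.11 to 1.94, 0.65 to 1.85, 0.76 to 1.43 and 0.68 to 1.31, and Ly6a (0.57 to 1.20) did so except with normexp. A move under 0.105, the spread of replicate spots for a difference, was counted as none. For wild-type transplanted minus native cells, 1 gene (Cd34) became 1.5-fold lower with the percentile over all probes, quantile normalization, cyclic loess, normexp and the series matrix. Averaging the probes of a gene left 0 genes 1.5-fold lower after transplantation of Sf3b1+/- cells. Normexp gave a median of 0.61 for that comparison, and 2 genes passing limma for the setting (Slamf1 and Cd34), against 8.51% of all genes. Spike-in scaling shifted the median of all genes by 0.59 in transplanted and 0.22 in native genotype comparisons, and by 0.79 in Sf3b1+/- and 0.42 in wild-type cells after transplantation. With it the medians of the 9 genes were 1.20, 0.17, 1.58 and 0.51 in those comparisons. It put 7 of the 9 past 1.5-fold upwards between transplanted genotypes, against 51.2% of all genes, 7 after transplantation of Sf3b1+/- cells, against 71.1%, and 4 after that of wild-type cells, against 33.5%. It left 0 lower after transplantation of Sf3b1+/- cells (Cd34 at 0.097). Limma then called 2 of the 9 for genotype, against 4.05% of all genes, and 6 for setting, against 39.5%, with 1 prior variance taken for every gene. For setting the share of all genes called was 0.583% as reported and 0% to 8.51% under the other alternatives. All genes split into 0.437% higher and 1.26% lower with normexp in native and 3.96% and 1.77% in transplanted genotype comparisons. The cause of these moves was not tested. No paired analysis was possible because each group holds 1 array, and none could be left out. Signal over background limits Tek most.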

Other observations

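Slamf1 and Cd48 lie beside each other in the SLAM gene cluster of mouse chromosome 1, with 1 annotated gene between them in GRCm38.p6. In transplanted cells, Sf3b1+/- minus wild type, the cluster members stood in gene order at -0.29 for Cd244a, 0.05 for Ly9, -1.30 for Slamf7, -0.49 for Cd48, 1.34 for Slamf1, -0.0026 for Cd84 and -0.62 for Slamf6. Slamf1 was thus the 1 gene of that row at least 1.5-fold higher, and its neighbours on both sides were not. Esam and Robo4 lie close together on mouse chromosome 9 with 2 genes between them, Robo3 and Msantd2, and differed by 0.72 and 0.20 in the same comparison.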
